A study of Mus musculus with 6 samples.

Results

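Sphingosine-1-phosphate (S1P) is a signalling lipid, and the 9 genes described here encode its 5 receptors (*S1pr1* to *S1pr5*), the sphingosine kinases that make it (*Sphk1* and *Sphk2*), the lyase that breaks it down (*Sgpl1*) and a transporter that exports it from cells (*Spns2*). The rule that picks them is their names and uses no measured value, and all 9 were found among the 33460 genes of the deposited tables. FACS sorted mural cells (3 samples) and brain microvascular fragments (3 samples) of mice at postnatal day 6 were profiled by RNA-seq. All mice carried the *Pdgfrb-eGFP* and *NG2-DsRed* reporters, in which the *Pdgfrb* promoter drives eGFP and the NG2 promoter drives DsRed. The sorted cells were positive for both reporters, whereas the fragments were captured with beads coated with antibody to CD31 and hold endothelial cells (EC), mural cells and whatever adheres to them. One side of each of 3 brains went to the sort and the other side to the fragments, so the groups differ in the method of isolation as well as in cell type.

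S1P is made inside cells by phosphorylation of sphingosine, which is itself released from ceramide. Once exported, it acts on G protein-coupled receptors at the cell surface. In blood vessels, S1PR1 couples to Gi and is known for tightening the endothelial barrier, while S1PR2 and S1PR3 also couple to Gq and to the G12/13 proteins and raise the tone of smooth muscle. The signal is ended by dephosphorylation or, irreversibly, by the lyase.

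The deposited values are FPKM, that is, sequenced fragments scaled to transcript length and to the total of the library, which correct for gene length and so allow genes to be compared within a library. The depth, counted here as fragments left in protein-coding genes after the removal of duplicate reads, differed between the groups. The methods give a larger number of reads sequenced in each sample. Protein-coding genes held approximately 1.04 to 2.37 M sequenced fragments in the mural cell libraries and 5.41 to 5.96 M in the libraries of microvascular fragments, as recovered from values that were whole multiples of 1 fragment in genes with a single annotated transcript (97.9 to 98.8% of low values, within 0.05 of a whole number). All 12 mural cell markers examined were enriched in the sorted cells, with ratios between 6.47 and 12.5. They include *Pdgfrb* and *Cspg4*, the gene of NG2, whose promoters drive the reporters used for the sort. The markers not used in the sort had ratios between 7.38 (*Rgs5*) and 12.5 (*Acta2*). The 12 EC markers were nevertheless present in the sorted cells at a median of 67.8% of their level in fragments, and 8 microglia markers at 8.94%. The corresponding medians were 116% for astrocytes, 113% for the oligodendrocyte lineage, 55.2% for neurons and 84.3% for erythroid cells, for which 5 of 6 markers were found. For 6 fibroblast markers the median was 791%. Mural cell replicate 3 stood apart in astrocyte markers, whose median level was 197% of the fragment mean there and 70.0% and 65.2% in replicates 1 and 2. Since these are bulk samples, fewer cells of a type and less RNA per cell cannot be told apart.

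In the sorted mural cells, *S1pr3* was 9.47-fold and *S1pr2* 3.44-fold higher than in the fragments, while the lyase gene *Sgpl1* was 2.50-fold lower. *S1pr1*, the most abundant receptor transcript of the fragments, was at 73.0% of its fragment level, a difference that did not pass the test. The S1P receptor signal therefore consisted mainly of *S1pr3* in mural cells (70.9 ± 2.64%, SD, n = 3) and mainly of *S1pr1* in fragments (73.6 ± 2.13%, SD, n = 3). These calls come from limma on log2(FPKM + 1) over the 14801 genes that reached an FPKM of 1 in 3 or more of the 6 samples. A gene was called at a Benjamini-Hochberg adjusted p under 0.05 and a ratio of mean FPKM above 2 or under 0.5. Of the 9 genes, 7 passed the filter on low values, 2 were called higher and 1 lower. Across all genes tested, 6.43% were called higher in mural cells and 10.1% lower. The higher calls made up 38.9% of all calls, and 52.9% when the libraries were quantile normalized, which moved the median log2 fold change of all genes from -0.12 to 0.01. None of the 7 genes tested changed direction under quantile normalization.

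**Figure D1:**
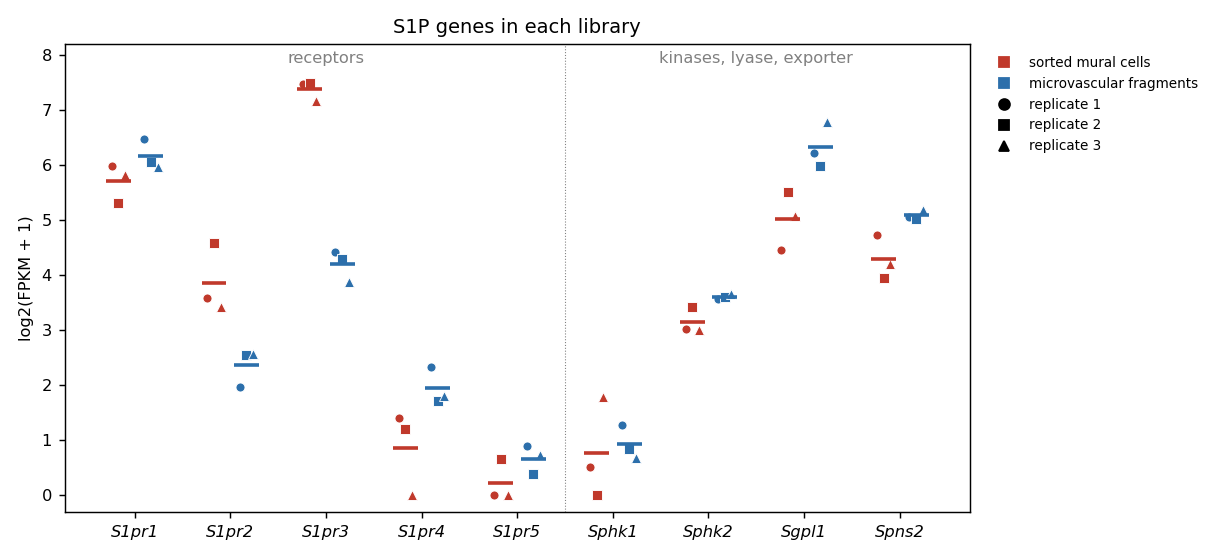
Values of the 9 S1P genes as log2(FPKM + 1) in each of the 6 libraries, with red for sorted mural cells, blue for microvascular fragments, a marker shape for each replicate and a short line for the group mean. *S1pr3* and *S1pr2* lie higher in all 3 mural cell libraries than in any fragment library, and *Sgpl1* lies lower in all 3.

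The promoters of the 3 genes that were called are shown so that their sequences can be set beside their opposite directions. They are the 250 bases before and 50 bases after the transcription start in RefSeq (GRCm38.p6), which holds 8 of the 9 genes and not *S1pr1*. They lie at chr13:51408368-51408667 (plus strand) for *S1pr3*, at chr9:20976744-20977043 (minus strand) for *S1pr2* and at chr10:61147635-61147934 (minus strand) for *Sgpl1*. Capitals mark GC boxes (GGGCGG, either strand) and the cAMP response element (TGACGTCA, which reads the same on both strands).
S1pr3: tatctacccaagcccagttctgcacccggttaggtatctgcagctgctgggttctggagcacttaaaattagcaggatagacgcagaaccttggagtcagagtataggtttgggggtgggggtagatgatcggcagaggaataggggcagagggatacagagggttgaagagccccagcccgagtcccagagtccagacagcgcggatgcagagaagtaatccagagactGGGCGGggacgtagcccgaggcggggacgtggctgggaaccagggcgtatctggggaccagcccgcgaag
S1pr2: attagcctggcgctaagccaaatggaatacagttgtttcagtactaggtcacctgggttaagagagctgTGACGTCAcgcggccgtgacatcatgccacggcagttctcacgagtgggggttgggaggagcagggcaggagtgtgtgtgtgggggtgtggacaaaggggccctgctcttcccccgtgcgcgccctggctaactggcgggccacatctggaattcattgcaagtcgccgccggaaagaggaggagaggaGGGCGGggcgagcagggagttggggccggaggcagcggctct
Sgpl1: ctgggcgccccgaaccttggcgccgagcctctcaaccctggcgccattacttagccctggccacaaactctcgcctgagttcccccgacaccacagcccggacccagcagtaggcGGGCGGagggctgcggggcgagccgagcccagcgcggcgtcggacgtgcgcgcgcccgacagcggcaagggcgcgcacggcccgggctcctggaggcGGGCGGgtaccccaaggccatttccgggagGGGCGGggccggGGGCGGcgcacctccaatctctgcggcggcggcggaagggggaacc
The *S1pr3* window holds 1 GC box and the *S1pr2* window 1, whereas the *Sgpl1* window holds 4. G and C made up 59%, 62% and 75.3% of these windows. Of the windows not shown, those of *Sphk2* hold 1 and 3 GC boxes and that of *S1pr5* holds 2. Those of *S1pr4*, *Spns2* and *Sphk1* hold 0. Whether the number of boxes goes with the direction was not tested. At least 1 GC box occurs in 35.7% of the 32851 RefSeq promoter windows. The *S1pr2* window also holds 1 cAMP response element, which occurs in 1.79% of all windows. Among the 13 windows of the 8 genes, the only other match to it was in 1 window of *Sphk2*, a gene that was not called. No TATA box (TATAAA, either strand, 13.6% of all windows), no E-box (CACGTG, 7.15%) and no CArG box (1.63%), the element bound by serum response factor in smooth muscle genes, was found in these 3 windows. The motifs were picked after the sequences had been seen, and a match describes letters, not a bound site.

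*S1pr3* (ENSMUSG00000067586) is a gene of chromosome 13 (51503987 to 51518166 in NCBIM37, the build of all gene positions given here, plus strand) with a single annotated transcript. Its FPKM in replicates 1, 2 and 3 was 178, 179 and 143 for mural cells and 20.4, 18.7 and 13.7 for fragments, so that the lowest mural cell sample stood far above the highest fragment sample. The means were 167 ± 20.6 and 17.6 ± 3.47 (SD, n = 3 each). The log2 fold change was 3.18 with a standard error of 0.18 and an adjusted p of 8.5e-05 from limma. These values rest on 1348, 572 and 482 sequenced fragments in mural cells and on 399, 338 and 273 in the microvascular libraries. In mural cells, 98.1% of all genes tested had a lower mean FPKM than *S1pr3*, compared with 59.5% in the fragments. With any 1 sample left out, the log2 fold change lay between 3.02 and 3.29.

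The ratio of *S1pr3* fell inside the range of the mural cell markers, with 7 of the 12 markers below it and 5 above it. Fibroblast markers rose together with it. Of 6 such genes, 5 were called higher in the sorted cells (*Col1a1*, *Col3a1*, *Dcn*, *Lum* and *Col6a3*). The other, *Fbln1*, had a ratio of 1.62 and was not called. The summed FPKM of all 6 was between 363 and 482 in mural cells and between 64.1 and 66.9 in fragments. None of the 6 was at 0 in any sorted sample. Collagen and decorin genes can be expressed by mural cells as well as by fibroblasts, and the part of fibroblasts in the *S1pr3* level was not tested.

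*S1pr2* (ENSMUSG00000043895, chromosome 9, 20770396 to 20781237, minus strand) encodes a receptor known for its coupling to G12/13. The mural cell replicates 1, 2 and 3 had FPKM values of 11.0, 23.1 and 9.71. In the fragments it was 2.93, 4.88 and 4.93. Every mural cell sample was thus above every fragment sample, although replicate 2 of the mural cells had more than the other replicates. The means were 14.6 ± 7.40 and 4.25 ± 1.14 (SD, n = 3 each), and the log2 fold change was 1.50 (standard error 0.36, limma adjusted p = 0.024). In sequenced fragments the values amount to 51, 45 and 20 in mural cells and 35, 54 and 60 in the microvascular libraries. The call was lost when any of the fragment samples was left out (limma adjusted p = 0.088 without fragment replicate 1, 0.059 without replicate 2 and 0.064 without replicate 3), with a log2 fold change of at least 1.30 in each case. It held when any mural cell sample was left out.

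*S1pr1* (ENSMUSG00000045092, chromosome 3, 115413351 to 115417973, minus strand) had an FPKM of 62.3, 38.7 and 55.5 in mural cells. In the fragments its FPKM was 87.7, 65.5 and 61.3, so the groups overlapped at the highest mural cell sample. The log2 fold change was -0.46 (95% interval -0.96 to 0.05, limma adjusted p = 0.18). Among the 12 EC markers, 7 had a lower level in mural cells relative to fragments than *S1pr1* and 5 a higher one. *Pecam1*, which encodes CD31, was at 62.9% and *Cldn5*, a tight junction gene of brain endothelium, at 81.1%. The summed FPKM of the EC markers was 1665 to 2147 in the sorted cells and 2271 to 2647 in fragments, and none was at 0 in any sorted sample. The share of EC transcripts in the *S1pr1* signal of the sorted cells was not tested.

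**Figure D2:**
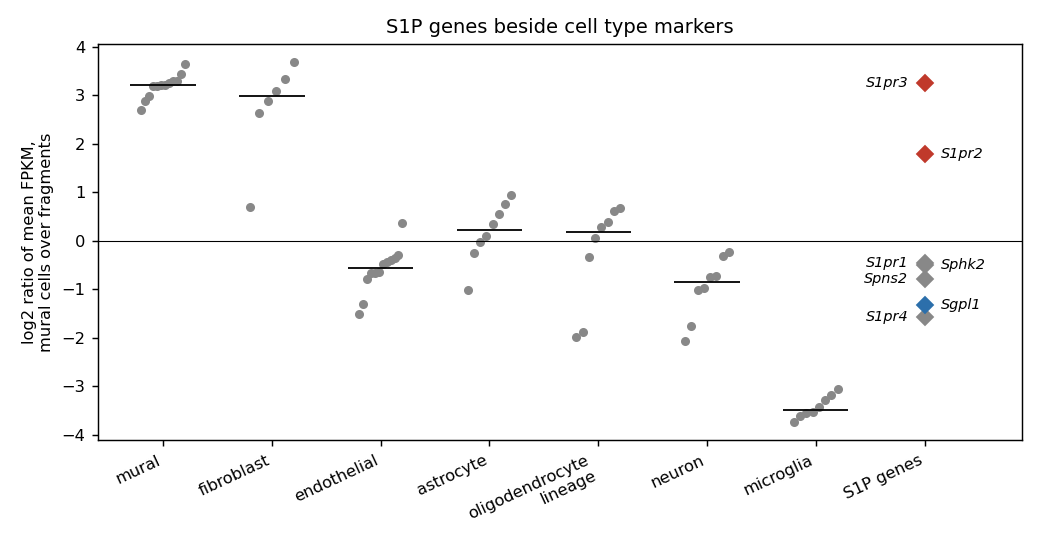
Ratio of mean FPKM between mural cells and fragments on a log2 axis for the genes of 7 marker lists (grey points, with the median as a black line) and for the 7 S1P genes tested (diamonds, red for higher, blue for lower, grey for not called). *S1pr3* lies among the mural cell and fibroblast markers. *S1pr1*, *Sphk2*, *Spns2* and *Sgpl1* lie within the ranges of the EC, oligodendrocyte lineage and neuron markers alike. All of these but *Sgpl1* also lie within the range of the astrocyte markers.

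*S1pr4* and *S1pr5* were close to the limit of detection. *S1pr4* (ENSMUSG00000044199, chromosome 10, 80961223 to 80962452, minus strand), a receptor known from lymphoid cells, had FPKM values of 1.65, 1.30 and 0 for mural cells, which corresponds to 3, 1 and 0 fragments. In the microvascular libraries the FPKM was 4.02, 2.29 and 2.50, from 19, 10 and 12 fragments. The samples of the groups did not overlap, but the log2 fold change of -1.08 (95% interval -2.10 to -0.06) had a limma adjusted p of 0.12. The count of 0 in mural cell replicate 3 allows an FPKM of up to 3.70 (3 fragments, counting error only), which is above 2 of the 3 fragment values. Transcripts of blood leukocytes differed between the groups in the same direction, since *S100a8* was listed at 0 in all mural cell samples and *S100a9* was at 5.80% of its fragment level. The summed FPKM of the 8 lymphocyte and granulocyte markers was 0 to 5.08 in mural cells and 33.5 to 97.3 in fragments, and 5 of them (*Cd3e*, *Cd3g*, *Ncr1*, *Nkg7* and *S100a8*) were at 0 in every mural cell sample. All of these but *S100a8* were also at 0 in the fragments. Their part in the *S1pr4* values was not tested.

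*S1pr5* (ENSMUSG00000045087, chromosome 9, 21047356 to 21052887, minus strand), which is known from oligodendrocytes and natural killer cells, did not pass the filter and was not tested. Values of 0, 0.584 and 0 FPKM were listed for mural cells and of 0.856, 0.308 and 0.654 FPKM for fragments. These are 0, 1 and 0 fragments against 9, 3 and 7. The counts of 0 allow an FPKM of up to 0.736 in mural cell replicate 1 and 1.66 in replicate 3, so a difference between the groups was not detectable at this depth.

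Within each library, the FPKM of the 5 receptors was then added and the share of each receptor taken, which does not depend on the scaling between libraries. *S1pr3* made up 70.3, 73.8 and 68.6% of the sum for mural cells and 17.6, 20.4 and 16.5% for fragments. For *S1pr1* the shares were 24.7, 15.9 and 26.7% for mural cells and 75.7, 71.4 and 73.8% for fragments. There was no overlap between the groups for either receptor, and the share of *S1pr2* was 6.18 ± 2.89% and 4.60 ± 1.82% (SD, n = 3 each), with overlapping samples. The summed receptor FPKM, which was compared after the values had been seen, was 252, 243 and 208 for mural cells and 116, 91.7 and 83.0 for fragments. In mural cells there were 2.85, 4.64 and 2.57 units of *S1pr3* FPKM for each unit of *S1pr1*, compared with 0.232, 0.286 and 0.224 in the fragments. On the scale of log2((*S1pr3* + 1)/(*S1pr1* + 1)), the difference between the groups was 3.64. By an exact two-sided permutation test, p = 0.1 was obtained for the *S1pr3* share, for the summed FPKM and for this log ratio, which is the smallest p that 3 samples against 3 allow. These and the log2 ratio of *Sgpl1* to *Sphk2* described below were the 4 comparisons adjusted together, with a Benjamini-Hochberg adjusted value of 0.1 for each. The shares of the other receptors were tested by the same permutation test but did not enter this adjustment. For them p was 0.1 for *S1pr1*, *S1pr4* and *S1pr5* and 0.6 for *S1pr2*.

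**Figure D3:**
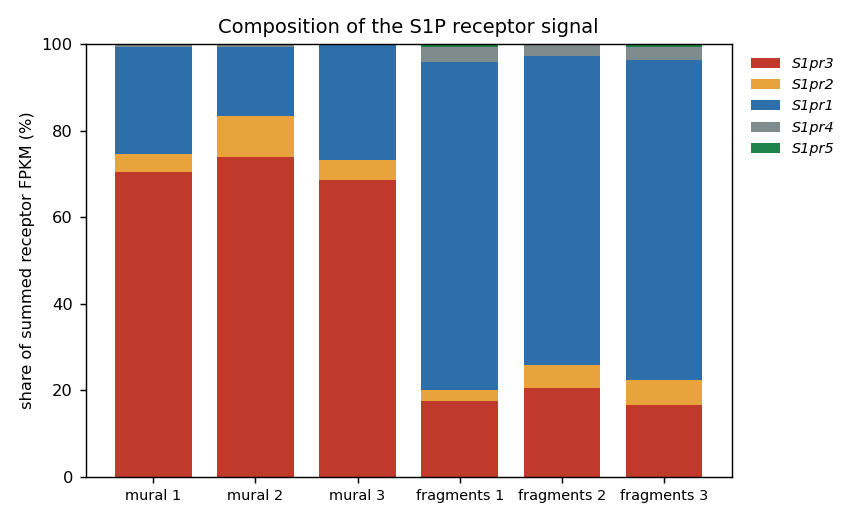
Stacked bars of the share (%) of each receptor gene in the summed FPKM of *S1pr1* to *S1pr5*, with 1 bar per library, mural cells on the left and fragments on the right. *S1pr3* takes 68.6 to 73.8% of the bars in mural cells and 16.5 to 20.4% in fragments, where *S1pr1* takes 71.4 to 75.7%.

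Among the genes of S1P synthesis, *Sphk2* had a higher mean FPKM than *Sphk1* in both groups. *Sphk2* (ENSMUSG00000057342, chromosome 7, 52964837 to 52973372, minus strand) was listed with an FPKM of 7.08, 9.78 and 7.05 for the mural cells and 10.9, 11.1 and 11.6 for the fragments. Although every mural cell sample was below every fragment sample, the log2 fold change of -0.46 (95% interval -0.94 to 0.02) had a limma adjusted p of 0.16. Its exons share 373 bases (8.97%) with the ribosomal protein gene *Rpl18* and 491 bases (11.8%) with *Dbp*, both on the opposite strand. *Rpl18* had a mean FPKM of 166 in mural cells and 170 in fragments, and although the library kit keeps strand, whether counting used it is not given in the sources used here, so the *Sphk2* level is uncertain.

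*Sphk1* (ENSMUSG00000061878, chromosome 11, 116392239 to 116397988, plus strand), the kinase known for its induction by growth factors, did not pass the filter. The mural cell samples had 0.424, 0 and 2.44 FPKM and the fragment samples 1.42, 0.803 and 0.608 FPKM. The highest value was that of mural cell replicate 3, the sample with the highest sum of astrocyte markers, and the part of astrocytes in it was not tested. Mural cell values lay both above and below all fragment values, and the means of 0.954 ± 1.30 and 0.944 ± 0.425 (SD, n = 3 each) differed by less than their spread. It has 17 annotated transcripts, so the number of fragments behind these values could not be recovered.

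*Sgpl1* (ENSMUSG00000020097, chromosome 10, 60561390 to 60610451, minus strand), which encodes the S1P lyase of the endoplasmic reticulum, was measured at an FPKM of 20.9, 44.6 and 32.7 for replicates 1, 2 and 3 of the mural cells. In the fragments it was 73.8, 62.0 and 109. Each mural cell sample was below each fragment sample, with considerable spread in both groups. The means were 32.7 ± 11.8 and 81.7 ± 24.7 (SD, n = 3 each), a log2 fold change of -1.32 (standard error 0.31, limma adjusted p = 0.020). The limma adjusted p was 0.060 without fragment replicate 1 and 0.076 without fragment replicate 3, whereas the call held when any other sample was left out. The ratio of 0.401 was below that of 11 of the 12 EC markers and above that of all 8 microglia markers, whose ratios lay between 0.0747 and 0.121. The 8 microglia markers summed to an FPKM of 121 to 165 in mural cells and 1478 to 1695 in fragments, with *Aif1* at 0 in mural cell replicate 2 and no other at 0, and their part in the *Sgpl1* difference was not tested.

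*Spns2* (ENSMUSG00000040447, chromosome 11, 72265140 to 72303463, minus strand), the transporter through which EC release S1P, had an FPKM of 25.7, 14.5 and 17.5 in mural cells. The fragments had values of 32.4, 31.6 and 35.4, all above the mural cell samples. The means were 19.2 ± 5.80 and 33.1 ± 1.97 (SD, n = 3 each). With a ratio of 0.580 it did not pass the 2-fold limit, and its log2 fold change was -0.79 (standard error 0.21, limma adjusted p = 0.036). Among all genes tested, 13% were lower at this adjusted p without a limit on the ratio. The limma adjusted p for *Spns2* was 0.051 without the filter on low values, 0.058 without an intensity trend, 0.066 without mural cell replicate 2, 0.077 without mural cell replicate 3, and 0.10 to 0.13 when a fragment sample was left out. Without mural cell replicate 1, *Spns2* passed the 2-fold limit as well. Of the 12 EC markers, 9 had a higher level relative to fragments than *Spns2* and 3 a lower one (*Tek*, *Slco1a4* and *Ly6c1*). The *Spns2* ratio also lay within the ranges of the astrocyte, oligodendrocyte lineage and neuron markers. The part of transcripts of EC or of these other cells in the *Spns2* difference was not tested. Its exons share 131 bases (3.18%) with *Mybbp1a* on the opposite strand.

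Ordered by mean FPKM in mural cells, the genes ran from *S1pr3* (167) through *S1pr1* (52.2), *Sgpl1* (32.7), *Spns2* (19.2), *S1pr2* (14.6) and *Sphk2* (7.97) to *S1pr4* (0.984), *Sphk1* (0.954) and *S1pr5* (0.195). *S1pr3* was above *S1pr1* and *Sphk2* was above *S1pr4* in all 3 libraries without overlap of their ranges, whereas all other neighbours in this order overlapped. In the fragments the order was *Sgpl1* (81.7), *S1pr1* (71.5), *Spns2* (33.1), *S1pr3* (17.6), *Sphk2* (11.2), *S1pr2* (4.25), *S1pr4* (2.93), *Sphk1* (0.944) and *S1pr5* (0.606). Here *Sgpl1* overlapped with *S1pr1*, *S1pr2* with *S1pr4*, and *Sphk1* with *S1pr5*, and the other neighbours were apart. In total, 2 of the 7 genes tested had all mural cell samples above all fragment samples and 4 had all of them below, compared with 16.5% and 24.5% of all genes tested.

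The lyase and *Sphk2* were also set against each other within each library, a comparison added after the values had been seen. *Sgpl1* exceeded *Sphk2* by a factor of 2.96, 4.56 and 4.63 for mural cells and 6.77, 5.58 and 9.42 for fragments. The log2 ratio of FPKM + 1 was 0.86 lower in mural cells, with no overlap between the groups (difference of -0.86, p = 0.1 by the exact two-sided permutation test). The uncertainty of *Sphk2* described above applies to this ratio too.

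Genes of the wider pathway were examined with a list of 61 genes, of which 54 were tested. By limma, 0 were called higher in mural cells and 6 were called lower, which is 11.1% of those tested. At an unadjusted p under 0.05, 5 (9.26%) were higher and 16 (29.6%) lower, compared with 14.1% and 20.9% of all genes tested. Without mural cell replicate 1, *Lpar1* was called higher, and without mural cell replicate 2, *Abcc1*. The number of genes called lower was 3 without fragment replicate 2 and 2 without fragment replicate 3. Of the 6, *Enpp2* was called with any 1 sample left out. *Asah1* lost its call without mural cell replicate 2, *Lpar5* without fragment replicate 2 or 3, and *Abca1* without mural cell replicate 2 or 3 or fragment replicate 3. *Acer2* kept its call only without mural cell replicate 2, as did *Lass6*. At an adjusted p under 0.05 with no limit on the ratio, 11 of the 54 genes (20.4%) differed, compared with 22.4% of all genes tested. The median log2 fold change of the list was -0.18, close to the -0.12 of all genes tested.

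Of the ceramidases, which release sphingosine for S1P synthesis, 2 of the 4 tested fell. The lysosomal acid ceramidase gene *Asah1* had FPKM values of 34.6, 20.4 and 25.3 for mural cells and 56.7, 57.6 and 65.4 for fragments (log2 fold change -1.16, limma adjusted p = 0.006). For *Acer2*, the ceramidase of the Golgi, the values were 2.77, 7.52 and 3.93 against 11.9, 24.3 and 12.1 (log2 fold change -1.58, limma adjusted p = 0.027). The neutral ceramidase gene *Asah2* had means of 10.8 and 14.8 and was not called, and *Acer1* was listed at 0 in all 6 libraries. Among the enzymes that remove the phosphate from S1P, *Sgpp1* had 18.3, 18.5 and 16.2 FPKM for mural cells and 10.1, 10.6 and 13.8 FPKM for fragments (limma adjusted p = 0.057), while *Sgpp2* had means of 1.00 and 4.09 (limma adjusted p = 0.055). Neither passed the test. Of the 3 lipid phosphate phosphatases, 0 were called by limma, and 1 had an unadjusted p under 0.05. *Ppap2a* (now *Plpp1*) had a ratio of 0.653 with an adjusted p of 0.015 from limma, short of the 2-fold limit.

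In ceramide synthesis, 1 of 13 genes tested was called, *Lass6* (now *Cers6*), which encodes a ceramide synthase. Its mean FPKM was 3.53 in mural cells and 9.11 in fragments (ratio 0.387, limma adjusted p = 0.034). This call was lost with the replicate number as a block, after quantile normalization and without the filter on low values. *Lass4* (now *Cers4*) differed the other way with a ratio of 1.82 (limma adjusted p = 0.023), and the serine palmitoyltransferase gene *Sptlc1*, of the enzyme that starts the pathway, had means of 16.9 and 17.1. Of the 6 tested genes of sphingomyelin and glycosphingolipid turnover, 0 were called by limma and 2 had an unadjusted p under 0.05, and the acid sphingomyelinase gene *Smpd1* had a ratio of 1.51 at an adjusted p of 0.019 from limma. Among carriers and transporters, *Abca1*, a lipid exporter that also carries S1P, was called lower with 94.3, 78.0 and 79.3 FPKM for mural cells and 161, 154 and 193 FPKM for fragments (ratio 0.496, limma adjusted p = 0.002). This ratio lay just inside the limit, and *Abca1* was not called after median-ratio scaling. The blood cell exporter gene *Mfsd2b* had a mean FPKM of 0.493 and 1.42 and was not called, and *Aldh3a2*, which acts on the aldehyde that the lyase releases, had means of 39.2 and 31.3 (limma adjusted p = 0.28).

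Among the G proteins through which the receptors signal, *Gnai2*, which encodes a Gi subunit, had a mean FPKM of 375 in mural cells and 370 in fragments. Of the genes for Gq proteins, *Gnaq* had means of 27.8 and 43.3 (ratio 0.641, limma adjusted p = 0.065) and *Gna11* of 36.3 and 26.8 (ratio 1.35, limma adjusted p = 0.12). The samples of the groups did not overlap for either gene, in opposite directions, but neither passed the test. *Gna13*, whose product couples to S1PR2 and S1PR3, had a ratio of 0.763 (limma adjusted p = 0.077).

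Lysophosphatidic acid (LPA) is a related lipid that also acts on G protein-coupled receptors. Of its 6 genes tested, 2 were called lower. *Enpp2*, which encodes the LPA-producing enzyme autotaxin, stood at 40.9, 25.6 and 32.0 FPKM for mural cells and 104, 78.6 and 73.7 FPKM for fragments (log2 fold change -1.36, limma adjusted p = 0.003). *Lpar5* had 0, 2.26 and 0 FPKM for mural cells and 5.24, 8.25 and 8.77 FPKM for fragments (log2 fold change -2.48, limma adjusted p = 0.013). Its mean was 10.1% of the fragment level, within the 7.47 to 12.1% of the 8 microglia markers, whose part in the *Lpar5* difference was not tested. *Lpar1* ranged from 5.18 to 23.2 in mural cells and from 6.01 to 9.22 in fragments, with a mean ratio of 2.02 and an adjusted p of 0.34 from limma. The highest mean FPKM of an LPA receptor in mural cells was thus 15.1, for *Lpar1*, far below the 167 of *S1pr3*.

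**Figure D4:**
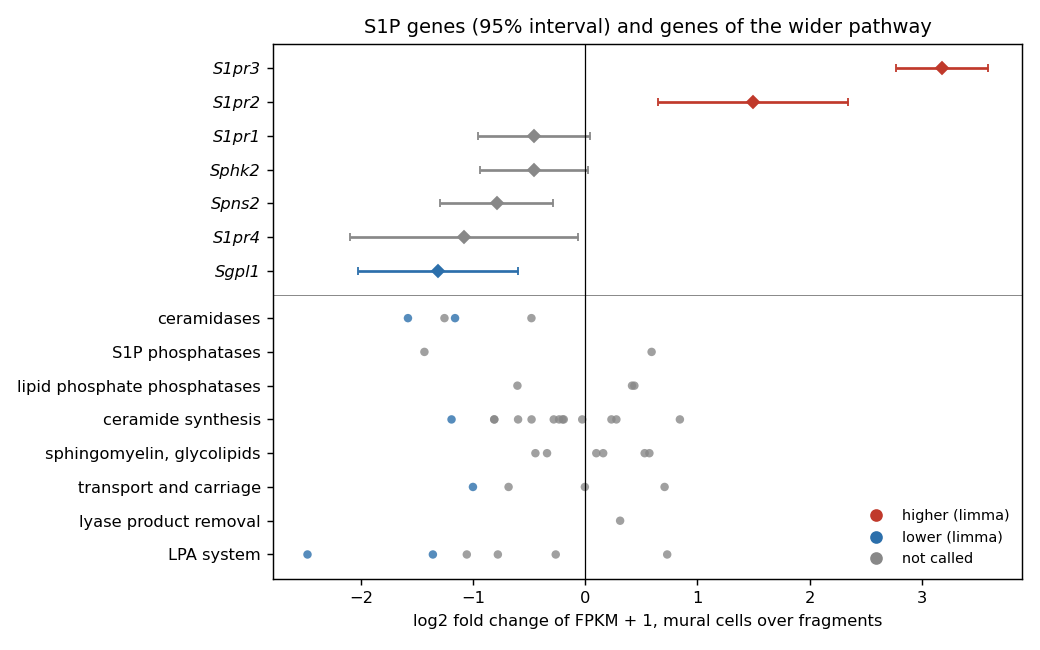
log2 fold change of FPKM + 1 between mural cells and fragments for the 7 S1P genes tested (diamonds, with 95% intervals from limma) and for tested genes of 8 roles in the wider pathway (points), with red for called higher, blue for called lower and grey for not called. *S1pr3* at 3.18 and *S1pr2* at 1.50 lie above 0 with their intervals, and no point of the wider pathway is red.

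The genes with the levels most like those of *S1pr3*, the S1P gene with the highest mean FPKM in mural cells, were found by the mean absolute difference in log2(FPKM + 1) over the 6 samples. The 5 closest were *Pcolce* (0.18), *Gucy1a3* (0.18), *Lhfp* (0.18), *Mmp9* (0.20) and *Pcdh18* (0.23). Their mean FPKM was between 142 and 173 in mural cells and between 15.1 and 20.2 in fragments. For *Sgpl1*, the S1P gene with the highest mean FPKM in the fragments, although it was above *S1pr1* in only 1 of the 3 fragment libraries (replicate 3), the 5 closest were *Prkcd* (0.21), *Csf1* (0.22), *Birc3* (0.23), *Inpp5d* (0.23) and *Ppp1r10* (0.26). Their ratios lay between 0.314 and 0.478. All 6 libraries enter both searches, so the likeness describes these samples only.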

How the data were processed

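RNA-seq was performed on 3 samples of sorted mural cells and 3 samples of microvascular fragments, grouped by the sample titles. The deposited values are FPKM per Ensembl gene. Per the labels and the methods, the authors sequenced both ends of fragments from rRNA-depleted total RNA, used NCBIM37 as the genome, and aligned with TopHat2 2.0.4, took out duplicate reads with Picard 1.92 and used Cufflinks 2.2.1. Each sample has its own file. Neither the scaling across samples nor the strand setting of the counting is given in the sources used here. Of 9 identifiers listed repeatedly with the same values, 1 line was kept.

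GENCODE's annotation of NCBIM37 gave symbols and gene positions (33116 of 33460 genes matched). A linear model of group, with an intensity trend and no block, was applied to log2(FPKM + 1) (limma 3.58.1, R 4.3.3) over 14801 genes, with p-values adjusted by the Benjamini-Hochberg method. FPKM are not counts, so no count test was used. The pseudocount of 1 understates changes of low genes. Fragments were recovered for genes with a single transcript from FPKM times length less an offset fitted per library. The fit was tested on simulated data. Single values were compared with exact permutation tests. Tables were made in Python 3.11.15 with pandas 2.3.3.

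The S1P genes, the gene lists and the tests were chosen with earlier results of these data known. The text names all 9 S1P genes, the pathway genes called and up to 4 others of each role, and the 5 genes closest in level to 2 of the S1P genes. The receptor sum, the comparison of *Sgpl1* with *Sphk2* and the promoter motifs were added after the values had been seen, and marker genes and overlapping genes are named where they touch a result. The methods name 3 mice whose brains were split between the groups, but the labels tie no sample to an animal. The main limma fit therefore treated the 6 samples as independent. Its p-values set the group difference against the spread between these samples and take no pairing into account. Alternatives were another pseudocount, median-ratio scaling, quantile normalization, other filters, no intensity trend, the replicate number as a block, the fold limit on the limma estimate, and leaving out each sample. Some signalling genes downstream of the receptors are not reported here, although they count among the 61 pathway genes.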

Additional observations from a re-analysis of the deposited data

How the results depend on the processing

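*S1pr3* was called higher under all 14 alternatives, with a log2 fold change between 3.02 and 3.29. Of 90 values of the 7 genes recomputed, 78 kept their direction and their side of the threshold on the limma adjusted p, 12 lost an adjusted p under 0.05 (*S1pr2*, *Sgpl1* and *Spns2*) and 0 reversed. With any 1 sample left out, the S1P genes called higher numbered 1 to 2 and those called lower 0 to 2. The pathway genes called higher numbered 0 to 1, those called lower 2 to 6, and among all genes the lower calls ranged from 607 to 1733, with higher calls making up 51.3 to 53.2% of all calls when a fragment sample was left out. With a filter at an FPKM of 5, which tests fewer genes, 948 genes in all were lower compared with 1493. The cause of the other changes was not tested.

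The labels do not say whether a replicate number marks an animal. The deviations of samples with the same number correlated with r of 0.082, 0.020 and 0.045, and each mural cell sample correlated best with the fragment sample of its own number. With the replicate number as a block, 900 genes were higher and 1344 lower among all genes, 2 S1P genes were higher and 1 lower, 0 pathway genes were higher and 5 lower (*Lass6* was lost), and the call of no S1P gene changed. Paired by number, the difference in the *S1pr3* share was 52.8 percentage points and that in the log2 ratio of *S1pr3* to *S1pr1* 3.64 (exact sign-flip permutation test, p = 0.25 for each, the smallest that 3 pairs allow). After quantile normalization 1212 genes were higher and 1080 lower. *S1pr4* gave no value at the filter of 5. Depth limits what can be said of *S1pr4*, *S1pr5*, *Sphk1* and *Lpar5* in mural cells.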
